A study of Mus musculus with 9 samples.

Results

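The genes described here are 10 markers of tuft cells, read in thymic epithelial cells (TEC) after intrathymic amphiregulin. They were taken by symbol from a table of 15080 genes: Pou2f3, Trpm5, Plcb2, Gnb3, Gng13, Lrmp, Dclk1, Avil, Alox5 and Alox5ap, all 10 present. Of these, 9 passed the filter on low counts and were tested, and Pou2f3 did not pass it. Sorted TEC of young male wild-type mice were profiled by bulk MARS-seq, a method that counts RNA molecules from their 3′ ends by unique molecular identifiers (UMIs). One group of 5 libraries came from mice given 1 µg of the recombinant protein (rAREG), which binds the EGF receptor, and the other of 4 libraries from mice given PBS vehicle, both collected 10 days after the injection. The labels state neither strain nor exact age nor how many mice a library holds, so p-values measure the spread between libraries, which may be technical. The libraries held 1523246 to 2159115 UMI counts, of which the 10 genes made up 819 to 1448.

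Tuft cells are chemosensory epithelial cells that detect ligands through the signalling cascade of taste cells and release IL-25, leukotrienes, prostaglandins and acetylcholine. In the thymus, cells of this kind belong to the mimetic medullary TEC, which take on programmes of peripheral tissues. Their development depends on Pou2f3, a POU-domain transcription factor whose family binds the octamer ATGCAAAT.

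The regions before 2 of the genes are shown because Trpm5 and Avil had the highest correlation of any pair over all 9 libraries, though not without rAREG replicate 4. Each run is the 250 bases upstream of the RefSeq start on GRCm38.p6, read 5′ to 3′ on the gene's strand, chr7:143094643-143094892 (minus strand) for Trpm5 and chr10:127000459-127000708 (plus strand) for Avil. Capitals mark ATGCAAA, the octamer without its last base, on either strand.
Trpm5: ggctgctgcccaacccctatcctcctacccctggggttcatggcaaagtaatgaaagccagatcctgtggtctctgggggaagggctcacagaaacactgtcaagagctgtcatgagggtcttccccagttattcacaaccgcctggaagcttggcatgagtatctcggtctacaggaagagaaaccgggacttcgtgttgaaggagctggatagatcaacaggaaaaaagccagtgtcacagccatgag
Avil: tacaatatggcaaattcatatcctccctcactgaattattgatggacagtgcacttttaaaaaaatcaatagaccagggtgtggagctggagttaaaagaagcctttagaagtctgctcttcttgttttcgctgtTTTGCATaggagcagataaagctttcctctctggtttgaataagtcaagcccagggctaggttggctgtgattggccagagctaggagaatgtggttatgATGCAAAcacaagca
The Avil run held the 7 letters at 115 to 109 bases before the start, as their reverse complement, and again at 15 to 9 bases. Windows were given for 6 of the 10 genes, 8 windows in all. The full octamer ATGCAAAT, each match of which also holds ATGCAAA, was searched on both strands and was in 0 of the 8 and in 1.6% of 32851 promoter windows of the same length. ATGCAAA on either strand was in 1 of the 8, against 4.12% of all windows, and TATAAA on either strand in 0 of the 8, against 12.4%. These matches describe the letters in the windows and not binding.

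The lowest library for most of these genes was rAREG replicate 4. In rAREG replicate 4 the 10 genes summed to 417 CPM (UMI counts scaled by the TMM-adjusted library size, as CPM), while the other 4 rAREG libraries summed to 724 ± 74.0 CPM (SD, n = 4). Vehicle libraries summed to 677 ± 116 CPM (SD, n = 4). The gap of rAREG replicate 4 to the next rAREG library was 0.611 of the group's range for the sum and at most 0.708 for a single gene (Trpm5), both under Dixon's 95% critical value of 0.71 for 5 libraries. The fold changes of the 9 tested genes are therefore given with and without this library, a choice that follows from the values seen. The depth of rAREG replicate 4 was 2044677 UMI counts, and its TMM factor was 0.971. Deeper libraries mostly had lower sums. The shallowest, rAREG replicate 1 (1523246 UMI counts), had the highest, 833 CPM. Vehicle replicates 2 and 4 (1804171 and 1868767) summed to 730 and 812 CPM. Vehicle replicates 1 and 3 (2023763 and 2118524) summed to 611 and 554 CPM. The deepest, rAREG replicate 3 (2159115), went the other way at 671 CPM. The part of depth in these sums was not tested. In bulk libraries, fewer tuft cells and less RNA per tuft cell cannot be told apart.

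None of the 9 tested genes passed the threshold for a rise or a fall after rAREG, and in none were the libraries of the groups apart. By edgeR's quasi-likelihood test with Benjamini-Hochberg adjustment over 11636 genes, 0 of 9 had an adjusted p under 0.05, and 0 of 9 had an unadjusted p under 0.05. Of all genes tested, 1.05% were called at the adjusted threshold, 0.559% higher and 0.49% lower, and 13.3% at the unadjusted one. The called share rests on 122 genes, a count of 18 to 230 when single libraries were left out. The groups did not overlap in 0 of 9 genes, against 4.92% of all genes tested. DESeq2, which called 1.96% of all genes it gave an adjusted p, and limma voom each called 0 of the 9 as well. Without rAREG replicate 4, edgeR called 0 of the 9 and 0.474% of all genes tested. The median log2 fold change of rAREG over vehicle was −0.073 over the 9 genes and −0.0054 over all genes tested, and without rAREG replicate 4 the median of the 9 was 0.071. The authors' deposited table, whose fold changes run PBS over AREG, listed 0 of the 10 genes with an adjusted p under 0.05, the lowest being 0.631 for Alox5ap.

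**Figure D1:**
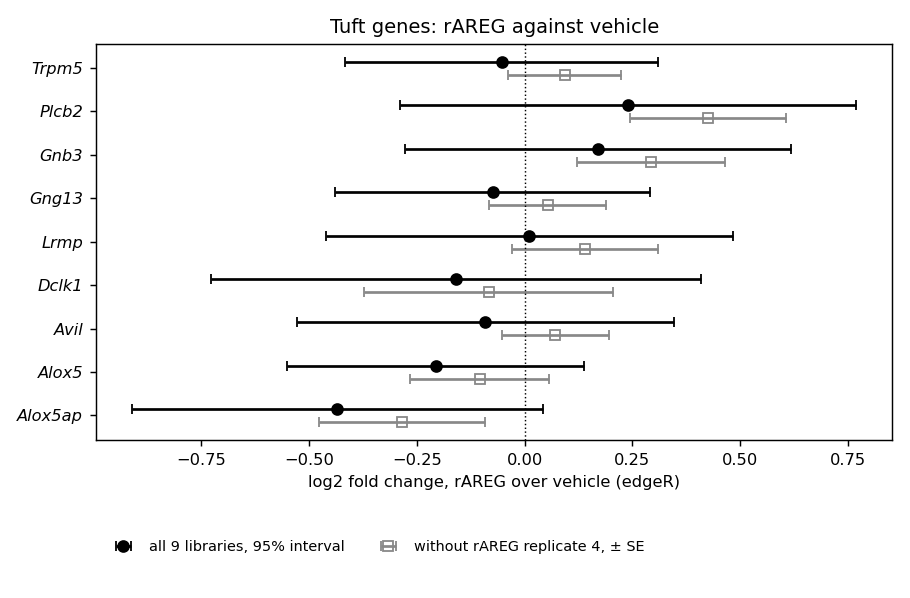
Log2 fold change of rAREG over vehicle for the 9 tested tuft genes by edgeR. Filled circles with 95% intervals use all 9 libraries and open squares with SE leave out rAREG replicate 4; every filled interval crosses 0, and each open square lies to the right of its circle.

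Pou2f3 (chromosome 9, 43123939 to 43210369, GRCm38, as for all positions below), the regulator needed for tuft cells, was near the limit of detection. It had 6, 3, 6, 9 and 6 UMI counts in rAREG replicates 1 to 5, and 5, 13, 7 and 7 in vehicle replicates 1 to 4. The groups overlapped, and the highest count was in vehicle replicate 2. In a fit without the filter its log2 fold change was −0.40 ± 0.435 (SE; edgeR, adjusted p = 0.774), with a 95% interval of 0.407- to 1.42-fold. Here 3 counts, the limit that a count of 0 allows, equal 1.39 to 1.94 CPM, and such limits cover counting error only.

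The taste-type cascade runs from a G protein through phospholipase C and calcium release to an ion channel. Gnb3 (chromosome 6, 124834240 to 124840275) encodes the G protein β subunit of taste cells. It stood at 158, 109, 111, 75.3 and 111 CPM in rAREG replicates 1 to 5, and at 86.6, 103, 76.4 and 134 CPM in vehicle replicates 1 to 4. Replicate 1 was the highest of all 9 libraries and replicate 4 the lowest, both of the rAREG group. Its log2 fold change was 0.17 ± 0.205 (SE; edgeR, adjusted p = 0.782), or 0.29 ± 0.172 without rAREG replicate 4. Gng13 (chromosome 17, 25717171 to 25719406), the γ subunit paired with it in taste cells, ranged over 66.1 to 121 CPM in rAREG and over 77.3 to 122 CPM in vehicle libraries. Its fold was 0.950, with a 95% interval of 0.738 to 1.22, and its log2 fold change was −0.073 ± 0.171 (SE), or 0.054 ± 0.136 without rAREG replicate 4.

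Plcb2 (chromosome 2, 118707517 to 118728438), the phospholipase Cβ of taste and tuft cells and also of leukocytes, had the most positive fold change of the 9. Its levels were 45.8, 37.5, 32, 16.8 and 44.8 CPM in rAREG replicates 1 to 5, against 26.7, 39.6, 29.1 and 23.6 CPM in vehicle replicates 1 to 4. Apart from replicate 4, the rAREG libraries lay above 3 of the 4 vehicle libraries. The log2 fold change was 0.24 ± 0.247 (SE; edgeR, adjusted p = 0.734), and 0.43 ± 0.181 without rAREG replicate 4 (adjusted p = 0.339).

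Trpm5 (chromosome 7, 143069153 to 143094642), the calcium-activated cation channel that depolarises taste and tuft cells, stood at 83.2, 73.3, 71.0, 41.2 and 75.9 CPM in rAREG replicates 1 to 5. In vehicle replicates 1 to 4 it stood at 59.4, 79.3, 62.5 and 84.7 CPM. The other 4 rAREG libraries lay inside the vehicle range, and replicate 4 lay below it. Its log2 fold change was −0.053 ± 0.172 (SE; edgeR, adjusted p = 0.930), with a 95% interval of 0.749- to 1.24-fold, and it turned to 0.093 ± 0.132 without rAREG replicate 4.

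Lrmp (chromosome 6, 145115653 to 145174934), a membrane protein of the endoplasmic reticulum that associates with IP3 receptors and is also made by lymphocytes, had the largest ratio of variance to counting variance of the 9 in the vehicle group. Its values were 175, 157, 147, 98.7 and 183 CPM in rAREG replicates 1 to 5, and 112, 169, 119 and 204 CPM in vehicle replicates 1 to 4. That variance was 23.9 times the counting variance, against a median of 3.18 over 1043 genes within 1.5-fold of its mean count. Vehicle replicates 2 and 4 were high and replicates 1 and 3 low, as for Trpm5. The log2 fold change was 0.011 ± 0.213 (SE; edgeR, adjusted p = 0.989), and 0.14 ± 0.169 without rAREG replicate 4.

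Avil and Dclk1, a pair of cytoskeletal markers of tuft cells, had their lowest levels in different libraries. Avil (chromosome 10, 127000709 to 127020994) encodes advillin, an actin-bundling protein of the apical tuft. Its levels were 134, 129, 101, 58.5 and 112 CPM in rAREG replicates 1 to 5, and 106, 120, 97.4 and 132 CPM in vehicle replicates 1 to 4. The low value of rAREG replicate 4 was 0.491 of the mean of the other 4 rAREG libraries. Avil's log2 fold change was −0.091 ± 0.200 (SE; edgeR, adjusted p = 0.895), and 0.071 ± 0.124 without that library.

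Dclk1 (chromosome 3, 55242364 to 55539068), a microtubule-associated kinase widely used as a tuft marker and also made by neurons, was counted 10 to 39 times in a library. Its levels were 16.1, 13.7, 18.1, 10.2 and 5.27 CPM in rAREG replicates 1 to 5, and 13.6, 12.1, 16.7 and 14 CPM in vehicle replicates 1 to 4. Its lowest library was rAREG replicate 5, with 10 UMI counts, and it was the only tested gene of the 9 whose lowest library was not rAREG replicate 4. The log2 fold change was −0.16 ± 0.273 (SE; edgeR, adjusted p = 0.859), and it was −0.084 ± 0.290 without rAREG replicate 4 and 0.044 without rAREG replicate 5.

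Alox5 and Alox5ap, the 5-lipoxygenase and its activating protein, start leukotriene synthesis in tuft cells and in leukocytes, and had the most negative fold changes of the 9. Alox5ap (chromosome 5, 149264767 to 149288153) stood at 54.2, 30.6, 36.2, 19.8 and 28.5 CPM in rAREG replicates 1 to 5, and at 48.3, 41.3, 36.8 and 55.0 CPM in vehicle replicates 1 to 4. Of the 5 rAREG libraries, 4 were below every vehicle library, while replicate 1 was within their range. The log2 fold change was −0.43 ± 0.223 (SE; edgeR, adjusted p = 0.426), with a 95% interval of 0.532- to 1.03-fold. Without rAREG replicate 1 it was −0.65, and without rAREG replicate 4 −0.28 ± 0.192, and it did not pass in either. Alox5 (chromosome 6, 116410077 to 116461178) ranged over 25.4 to 43.9 CPM in rAREG and over 34.2 to 47.3 CPM in vehicle libraries, with a fold of 0.867 and a 95% interval of 0.683 to 1.10 (edgeR, adjusted p = 0.630). Without rAREG replicate 4 its log2 fold change was −0.10 ± 0.161 (SE), against −0.21 ± 0.165 with it.

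**Figure D2:**
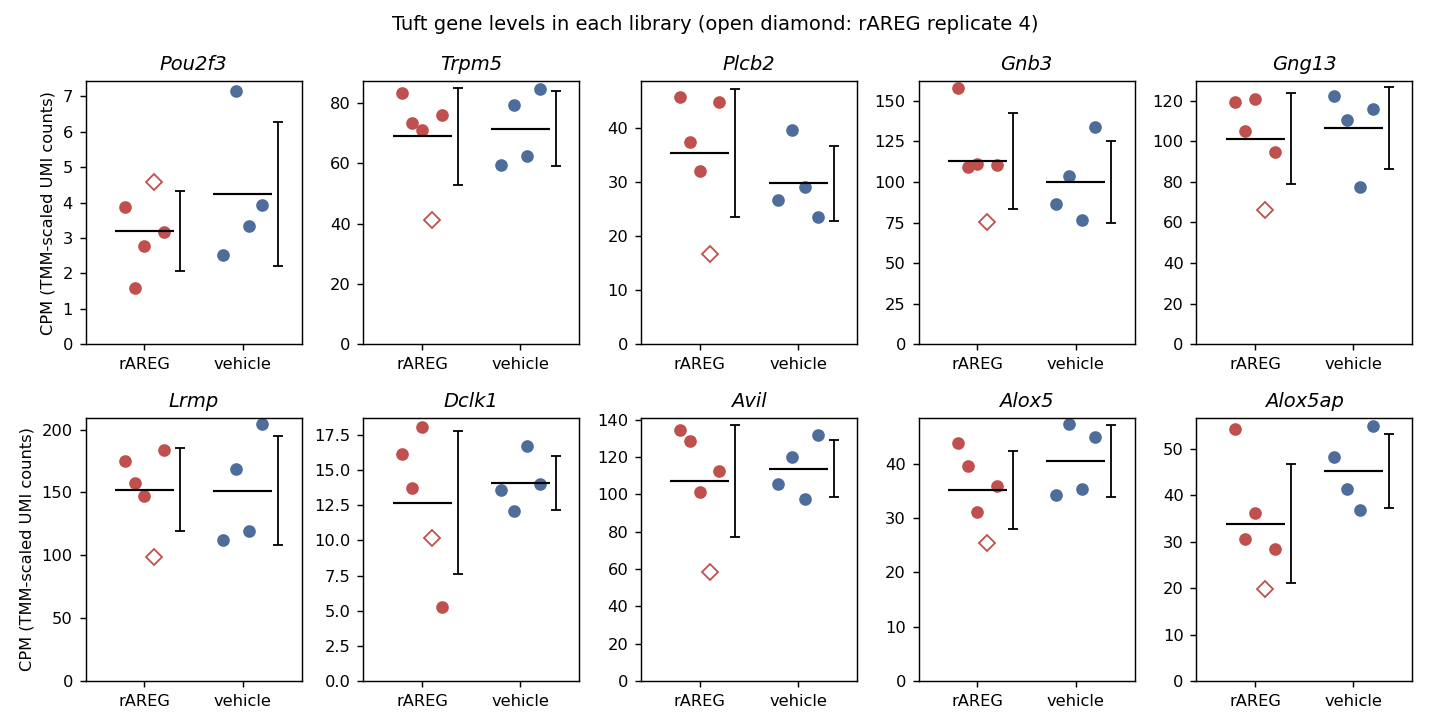
CPM of each tuft gene in every library, rAREG left and vehicle right, with the mean as a horizontal line, the SD as the bar beside it, and rAREG replicate 4 as an open diamond. The groups overlap in every panel, and the diamond is the lowest of the 9 libraries in 8 panels, Pou2f3 and Dclk1 being the exceptions.

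Most of the genes were at their lowest in the same library. In rAREG replicate 4, 8 of the 9 tested genes had their lowest level of the 9 libraries, against 13.0% of all genes tested. The same 8 were at 0.75 or less of the mean of the other 4 rAREG libraries, a level reached by 14.7% of all genes tested and by 8.96% of those with a mean of at least 20 CPM. The ratios ran from 0.420 for Plcb2 to 0.677 for Alox5, and Dclk1 was at 0.765. The median over the 9 was 0.596, while over all genes tested it was 0.990. These counts describe a library that was noticed in the data, and no test was made of them.

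Each gene was then set against the mean log2 CPM of the other 8. Pearson's r over the 9 libraries was 0.94 for Avil, 0.93 for Trpm5, 0.84 for Alox5, 0.80 for Gng13, 0.79 for Gnb3, 0.76 for Alox5ap and 0.75 for Lrmp. These 7 passed after Benjamini-Hochberg adjustment over 9 relations, with adjusted p from 0.0049 to 0.022 (two-sided exact permutation tests over 362880 pairings). Plcb2 (r = 0.58, adjusted p = 0.117) and Dclk1 (r = 0.16, adjusted p = 0.625) did not pass the exact test. By Spearman's rho, Avil and Trpm5 (0.85 each, adjusted p = 0.027) and Gnb3 (0.80, adjusted p = 0.041) passed the exact permutation test, and the other 6 did not, with rho from 0.13 for Dclk1 to 0.72 for Alox5.

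The calls depended on rAREG replicate 4, and the size of r did so for some genes more than for others. Without that library, 0 of the 9 genes passed the exact permutation test. Over the other 8 libraries r was 0.84 for Gnb3, above its value with all 9, 0.80 for Avil and 0.78 for Trpm5 (exact permutation test, adjusted p = 0.070 each). It was 0.65 for Alox5, 0.53 for Lrmp, 0.50 for Gng13, 0.45 for Alox5ap, 0.0096 for Plcb2 and −0.059 for Dclk1. The 2 libraries farthest from the median of all 9 genes' mean were rAREG replicates 4 and 1. Leaving out the 2 farthest from the median of the other 8 genes gave r of 0.76 for Trpm5, 0.73 for Avil, 0.71 for Gnb3, 0.61 for Alox5 and 0.55 for Lrmp, and lower values, down to −0.40 for Plcb2, for the other 4. Without rAREG replicate 1, 6 passed, Alox5ap losing its call (adjusted p = 0.070), and without vehicle replicate 4, 8 passed, Plcb2 gaining one (exact permutation test, adjusted p = 0.030). Between pairs of genes, r was highest for Trpm5 and Avil with all libraries, at 0.95, and was 0.81 for them without rAREG replicate 4. Without it the highest was 0.96 for Trpm5 and Lrmp, a pair at 0.92 with all libraries. With each group's mean subtracted the median r of a gene with the others was 0.85, against 0.79 before.

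**Figure D3:**
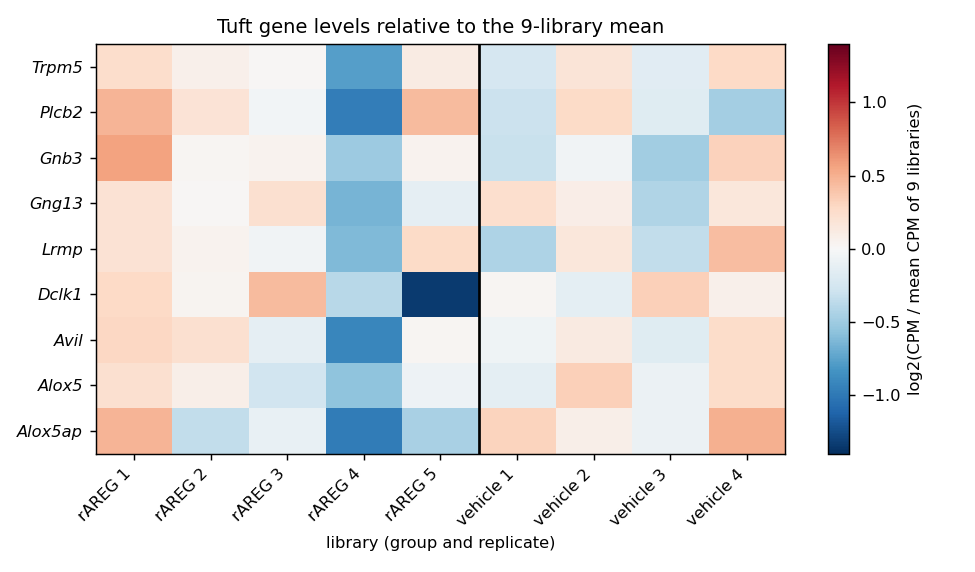
Log2 of each tested gene's CPM over its mean of the 9 libraries, with the 9 tested genes in rows and libraries in columns. rAREG is left of the line and vehicle right of it. Column rAREG 4 is blue for each of the 9 genes shown, and the darkest cell is Dclk1 in rAREG replicate 5 at 5.27 CPM. Pou2f3 is not shown. It had 9 UMI counts in rAREG replicate 4, above the 3 to 6 of the other rAREG libraries.

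All 9 genes varied more within the rAREG group than the median gene of like count did, as a description with no test. Within the rAREG group the variance of Avil was 16 times the counting variance, against a median of 2.46 over 1478 genes within 1.5-fold of its mean count. Without replicate 4 it was 3.68 times. For Trpm5 the values were 7.18 and, without replicate 4, 0.645, against a median of 2.01 for genes of like count. For Gnb3 they were 13.4 and, without replicate 4, 7.80, and it had 12.2 in the vehicle group, where its like genes had a median of 2.44.

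Other tuft genes were read from 4 lists of 66 genes, of which 51 were in the table and 41 were tested. By edgeR 0 passed the threshold as higher and 0 as lower. An unadjusted p under 0.05 was found in 3 of the 41, beside 13.3% of all genes tested, and the groups did not overlap in 2 of the 41, beside 4.92%, so neither count stood above the share of all genes. DESeq2 called 1, beside 1.96% of all genes, and limma voom 0. The median log2 fold change of the 41 was 0.094, beside −0.0054 over all genes tested, and 0.14 without rAREG replicate 4. Of 4 receptor and transduction genes, the most abundant was Itpr3, the IP3 receptor of taste cells, at −0.034 ± 0.129 in log2 fold change (SE), and Plcg2 and Itpr2 were at −0.17 and 0.23. Of 7 output genes, Alox12e, an epidermal-type lipoxygenase, averaged 849 ± 26.0 CPM in rAREG (SD, n = 5) and 679 ± 55.3 CPM in vehicle libraries (SD, n = 4). The groups did not overlap, but its log2 fold change of 0.32 ± 0.0963 passed only with DESeq2 (adjusted p = 0.012) and not with edgeR (adjusted p = 0.110). Ltc4s, the leukotriene C4 synthase downstream of Alox5, was at 0.13 ± 0.164 and Pla2g4a, the phospholipase that frees arachidonic acid, at 0.12 ± 0.204.

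Among 4 tested regulators, Ascl2, a basic helix-loop-helix factor known from intestinal stem and tuft-lineage cells, was higher in each rAREG library than in every vehicle library without passing. It stood at 14.2, 10.5, 6.49, 7.63 and 13.2 CPM in rAREG replicates 1 to 5, and at 4.03, 4.4, 6.21 and 5.05 CPM in vehicle replicates 1 to 4. Its log2 fold change was 1.05 ± 0.315 (SE; edgeR, adjusted p = 0.114), and in the 9 fits without 1 library it was 0.92 to 1.19. Spib, an ETS factor shared with microfold cells and lymphoid cells, was at 0.22 ± 0.134 and Sox9 at −0.26 ± 0.135. The 26 genes of structure and signalling included the broad epithelial keratins Krt8 and Krt18, at −0.10 and −0.072, and Tmem176b at 0.13, and none passed.

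The cytokine gene Il25, singled out after its values were seen, stood at 31.0, 8.97, 11.6, 8.14 and 24.2 CPM in rAREG replicates 1 to 5, and at 10.1, 23.7, 12.9 and 20.7 CPM in vehicle replicates 1 to 4. The vehicle range lay inside the rAREG range, whose lowest library was replicate 4 (log2 fold change −0.026 ± 0.433, SE; edgeR, adjusted p = 0.987). Chat, the choline acetyltransferase gene, also singled out afterwards, had at most 4.74 CPM in any library and was not tested.

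Genes alike in their pattern were ranked by Pearson's r with the mean of the 9 tested genes, each centred and scaled, among 6769 genes with a mean of at least 20 CPM. The 5 most alike were Fbxo6 (0.97), Abca3 (0.95), Sh2d6 (0.95), Fam234a (0.91) and Rbm5 (0.90). Pearson's r does not measure the size of a change, and Fbxo6 varied little, from 80.9 to 100 CPM over the 9 libraries. In rAREG replicate 4 it was at 0.840 of the mean of the other 4 rAREG libraries. Rbm5 was at 0.779, Abca3 at 0.673, Fam234a at 0.603 and Sh2d6 at 0.409. The ranking is a description over 9 libraries that were scaled together and differ in depth (1523246 to 2159115 UMI counts). Sh2d6, an SH2-domain gene from the tuft structure list, stood at 165, 111, 89.5, 47.8 and 103 CPM in rAREG replicates 1 to 5, and at 85.5, 130.5, 106 and 144 CPM in vehicle replicates 1 to 4. It was thus lowest in rAREG replicate 4 and highest in rAREG replicate 1. Sh2d7, of the same list, under the level set for ranking and singled out after its values were seen, had an r of 0.92. The 41 wider tuft genes had a median r of 0.44, beside −0.0060 over all genes tested. An r over 0.6 was found in 15 of the 41 (36.6%), beside 5.17% of all genes tested, and 10 of the 41 had a negative r. Of the wider tuft genes named above for their abundance, the negative ones were Alox12e (−0.021), Spib (−0.16), Itpr2 (−0.30), Pla2g4a (−0.41) and Tmem176b (−0.47). Without rAREG replicate 4, 10 of the 41 (24.4%) had an r over 0.6, beside 6.23% of all genes. Bmx, a tyrosine kinase gene of that list singled out after its values were seen, went with the 9 genes through rAREG replicate 4 alone (r = 0.79 with it and 0.044 without it).

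**Figure D4:**
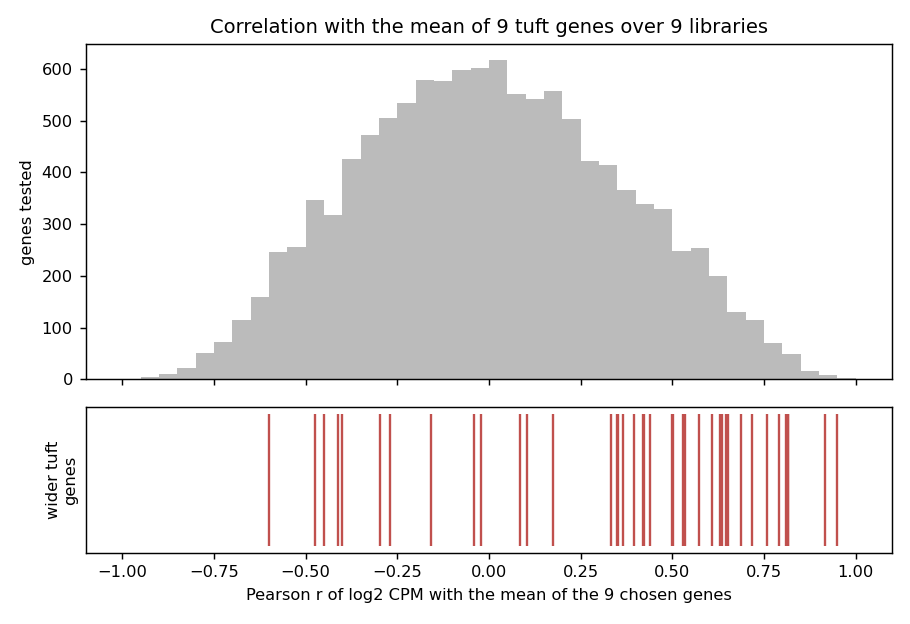
Pearson's r of log2 CPM over 9 libraries between each tested gene and the mean of the 9 chosen tuft genes, as a histogram of all other tested genes (above) and as 1 line for each of the 41 wider tuft genes (below). The lines lie mostly right of 0, with Sh2d6 (0.95) and Sh2d7 (0.92) farthest right, while the histogram is centred near 0.

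Markers of other cells were read beside the low level of rAREG replicate 4. Of 13 epithelial markers, 0 had their lowest level there, their median ratio to the other 4 rAREG libraries was 0.997, and Epcam, the epithelial adhesion gene singled out as the usual TEC marker, was at 208 CPM, against 219, 220.5, 220.3 and 189 CPM in rAREG replicates 1, 2, 3 and 5. Endothelial genes were low in it as the tuft genes were: all 3 tested ones were at 0.75 or less, with a median ratio of 0.533. The 6 endothelial genes in the table summed to 35.1 CPM in rAREG replicate 4, over a range of 35.1 to 81.3 CPM in rAREG and 52.7 to 76.0 CPM in vehicle libraries, and 0 of the 6 were at 0 in every library. Their part in the result was not tested.

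Leukocytes make Alox5, Alox5ap, Plcb2 and Lrmp too. The 14 myeloid genes, all in the table, summed to 870 to 1249 CPM in rAREG and 817 to 1626 CPM in vehicle libraries, and 4 of the 12 tested were at 0.75 or less in rAREG replicate 4, with a median ratio of 0.938. For B cell genes, of which 6 of 8 were in the table, the sums were 40.8 to 53.5 CPM in rAREG and 32.7 to 46.8 CPM in vehicle libraries. Mast cell and basophil genes, 7 of 8 in the table, summed to 443 to 590 CPM in rAREG and 284 to 399 CPM in vehicle libraries, of which Hdc, the histidine decarboxylase gene, averaged 450 ± 55.4 CPM in rAREG (SD, n = 5) and 321 ± 50.5 CPM in vehicle libraries (SD, n = 4; edgeR, adjusted p = 0.053). Dendritic (4 of 8 in the table, 2 tested), thymocyte (11 of 13, 6 tested) and fibroblast genes (8 of 8, 4 tested) were read too. The tested ones had median ratios of 0.852, 0.906 and 0.851 in rAREG replicate 4. The 2 dendritic genes were at 0.652 and 1.05. None of the genes in the table from these 6 lists was at 0 in every library, and their part in the result was not tested. The most abundant gene of each other list missed the threshold. Brackets give the list a gene was read from, not a cell type that alone makes it. The log2 fold change was 0.16 for H2-Aa (epithelial list), −0.75 for S100a9 (myeloid), 0.63 for Ccr7 (dendritic) and 0.20 for Cd79b (B cell). It was 0.063 for Tcf7 (thymocyte), −0.92 for Dcn (fibroblast) and 0.11 for Plvap (endothelial). Aire, the regulator of medullary TEC, was the only listed marker that rose (log2 fold change 0.67 ± 0.148, SE; edgeR, adjusted p = 0.037), and without rAREG replicate 4 none passed.

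**Figure D5:**
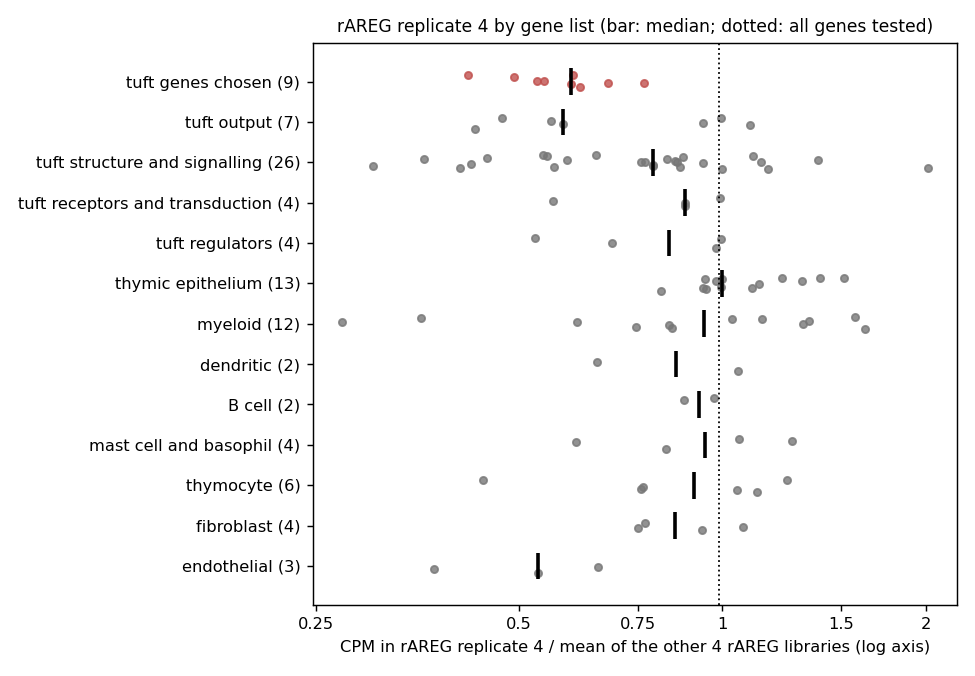
CPM in rAREG replicate 4 divided by the mean of the other 4 rAREG libraries, on a log axis, for each tested gene of a list (number in brackets), with the list's median as a bar and the median of all genes tested (0.990) as a dotted line. All 9 chosen tuft genes lie left of 0.77, while the 13 epithelial markers centre on 0.997.

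Some of the genes share sequence with a neighbour on the opposite strand, and no label or header says if counting used the strand. The 3′ ends of Avil, Lrmp and Gng13 lie inside Tsfm, Casc1 and Chtf18. Tssc4 (143069249 to 143071093) lies inside Trpm5, close to the 3′ end of Trpm5 at 143069153. Tsfm was at 34.6 CPM in rAREG replicate 4, its highest of the 9 libraries, against 26.9 to 31.1 CPM in the other rAREG libraries and 22.6 to 31.9 CPM in vehicle libraries. Casc1 and Chtf18 had at most 10 and 24 UMI counts in a library, and Tssc4 stood at 53.9 CPM in rAREG replicate 4, within its range of 32.7 to 56.1 CPM over the other 8 libraries.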

How the data were processed

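UMI counts per gene were deposited by the authors as raw whole numbers for 9 libraries, per the file headers, and every test here used them. Tools listed in the submitters' processing notes, without roles, are STAR 2.5.2b, HTSeq, cutadapt, bcl2fastq and DESeq2, with mm10 as the build. The same deposited table gives log2 fold changes of PBS over AREG and adjusted p-values from the authors' own comparison. Its 18 columns of normalised and regularised values were not used. Groups come from the sample titles.

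The main test was the robust quasi-likelihood F test of edgeR 4.0.16 under R 4.3.3, after filterByExpr and TMM scaling, with p adjusted over 11636 genes. The filter left out 3444 genes. Each SE was obtained by dividing the absolute log2 fold change by the root of F. Mean CPM, which is not scaled to length, ranked genes within a list only to choose which to name. Correlations used log2 CPM with a prior count of 2. Positions are from GENCODE M21 (GRCm38), promoters from RefSeq (GRCm38.p6). DESeq2 1.42.0, limma 3.58.1 voom, other scalings, filters, blocks and left-out libraries were alternatives.

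The genes, lists and tests were chosen with earlier results of these data known. Genes named outside the 10 are the 3 most abundant of each wider tuft list (none passed), the 5 most alike in pattern, those said to be singled out, and 4 neighbours that overlap one of the 10. From each other list they are the most abundant gene and any that passed.

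A test on simulated counts (rAREG against vehicle, 11364 genes) found 35.1% of the genes changed 1.5-fold, 78.6% of those changed 2-fold and 98% of those changed 3-fold. False ones made up 7.2% of its calls. Figures used matplotlib 3.10.9, and correlations numpy 2.4.6 and scipy 1.17.1.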

Additional observations from a re-analysis of the deposited data

Results flagged for a closer look

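Of 55 groups of 4 or 5 libraries examined, 2 held a library far from the others by Dixon's 95% critical value, where chance gives about 1 in 20 groups. Neither of these was in rAREG replicate 4 or in one of the 10 genes. Plcg2, a phospholipase Cγ gene of the wider transduction list, stood at 45.8 CPM in rAREG replicate 1, against 27.4 to 30.6 CPM in the other 4 rAREG libraries. Krt18, a keratin shared by tuft cells and other simple epithelia, stood at 2861 CPM in vehicle replicate 1, against 2547 to 2563 CPM in the other 3 vehicle libraries.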

How the results depend on the processing

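None of the 9 tested genes passed in any of 171 fits over 19 alternatives, the lowest adjusted p being 0.110 for Alox5ap without rAREG replicate 1. DESeq2 called 192 of all genes (118 shared with edgeR) and 1 of the wider tuft genes, Alox12e. Without single libraries, all genes called numbered 18 to 230 (58, 28 and 54 without rAREG replicates 1, 2 and 4, and 18, 43 and 230 without vehicle replicates 1, 2 and 4), wider tuft genes called 0, the median of the 9 genes −0.13 to 0.071, and genes passing the correlation test 0 to 8. Fold changes that turned sign without single libraries ranged, on the log2 scale, over −0.33 to 0.044 for Dclk1, −0.13 to 0.093 for Trpm5, −0.18 to 0.071 for Avil, −0.11 to 0.19 for Lrmp, −0.20 to 0.054 for Gng13, −0.14 to 0.070 for Itpr3 and −0.075 to 0.35 for Pla2g4a, and the r of Dclk1 over −0.059 to 0.49. Itpr3 turned to 0.0068 with limma voom, and Lrmp to −0.039 with library size as a covariate. The cause was not tested.

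With a replicate block by title number, 308 genes were called (117 shared), Dclk1 was at 0.032 and Lrmp at −0.051. With a replicate block by library number, Trpm5 was at 0.094, Avil at 0.066, Gng13 at 0.061 and Itpr3 at 0.014. No vehicle library shares the title number of rAREG replicate 5 or the library number of rAREG replicate 4. A library alone in its block adds nothing to the fold changes of that fit. Without rAREG replicate 4, Trpm5 was at 0.093, Avil at 0.071, Gng13 at 0.054 and Itpr3 at 0.0072. Without rAREG replicate 5, Dclk1 was at 0.044 and Lrmp at −0.058. Same-numbered libraries correlated at −0.025 to 0.174 by title and −0.036 to 0.080 by library number, and not every library correlated best with its own number, so the numbers were not taken as pairs. At this depth Pou2f3, with 3 to 13 counts, limits any statement on it, and 1.5-fold changes were mostly missed in simulated data.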
